A study of Homo sapiens with 8 samples.

Results

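Panc.05.04 is an established human pancreatic ductal adenocarcinoma (PDA) cell line, and the response described here is the difference between its library of cells transfected with a small interfering RNA (siRNA) against PDX1 and its library of cells transfected with a control siRNA. The members were the rows of the Panc.05.04 table that reached 1 FPKM (fragments counted per kilobase of a transcript and per library size, a level per length) in either library, and 11425 of 28520 rows did. Each member was described by its log2 ratio, the log2 of FPKM + 1 with PDX1 siRNA over FPKM + 1 with control siRNA, in which the added 1 makes differences of genes at low FPKM look smaller. Just inside the limit lay BASP1, at 1.0 FPKM with control and 0.443 FPKM with PDX1 siRNA, and just outside it PCDHB12, at 0.999 and 0.609 FPKM. The same 2 treatments were given to 3 other PDA lines, Panc.8, HPAF-II and Panc.10.05, with 1 library for each line and treatment, 8 in all. RNA was taken on day 3 after transfection. The siRNA sequences and their number are not named by the labels, and every comparison within Panc.05.04 is 1 library against 1 library of the same line, so differences are given by size, with no test.

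PDX1 is a homeodomain transcription factor that the embryonic foregut needs to form a pancreas. In the adult it is kept in islet beta cells, where it binds the insulin gene, and at lower levels in exocrine cells, and PDA cells can express it. An siRNA enters the RNA-induced silencing complex and directs an Argonaute protein to cleave the matching transcript, which lowers the RNA and, with a delay, the protein. Several of the gene groups described below encode secreted proteins of inflammation, which carcinoma cells can make themselves under the control of NF-kB, a dimeric factor held in the cytoplasm by inhibitor proteins until a signal releases it. Others are targets of YAP and TAZ, coactivators that enter the nucleus when the Hippo kinases are off and act through the TEAD DNA-binding factors.

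The labels call all 4 lines PDA tumour cells, and the carcinoma markers of Panc.05.04 were mixed. EPCAM, an epithelial adhesion protein, was at 31.96 FPKM with control and 47.2 FPKM with PDX1 siRNA, and the simple-epithelial keratins KRT8 (305 and 394 FPKM) and KRT18 (393 and 494 FPKM) were also present. The duct keratins KRT19 (1.55 and 0.921 FPKM) and KRT7 (0.868 and 0.709 FPKM) and the junction cadherin CDH1 (1.395 and 2.12 FPKM) were close to absent. In the controls of the other 3 lines KRT19 lay between 1207 and 1758 FPKM, KRT7 between 540.2 and 949 FPKM and CDH1 between 76.9 and 109.8 FPKM. The intermediate filament gene VIM showed the opposite order, with 1080 and 768 FPKM in Panc.05.04 and at most 3.48 FPKM in the controls of the other lines. Each line had its own table, and whether the tables share a scale is not known, which limits such comparisons of levels. Whether these 2 libraries come from the line that their labels name could not be checked from the tables, so Panc.05.04 is used here as the name on the labels. The carcinoma marker list as a whole had a median log2 ratio of 0.37 over 5 members. Of the markers of other cell types, 6 fibroblast genes stayed at or under 0.445 FPKM, 4 endothelial genes at or under 0.0796 FPKM, and the 5 acinar and 4 islet genes with a row of their own were listed at 0 in both libraries. Among leukocyte markers CD14 was at 1.42 and 0.599 FPKM, CSF1R at 0.0267 FPKM and 0, and CD3E and LYZ were listed at 0. The FPKM values summed to 378463 with control siRNA and 371329 with PDX1 siRNA, and 11229 and 11186 rows reached 1 FPKM. Read totals are not stated in the labels or tables. The spacing of the lowest values put the depth of the PDX1 siRNA library at 0.838 of the control library, and a second, less common spacing at 1.68.

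PDX1 itself was at 1.41 FPKM with control and 0.416 FPKM with PDX1 siRNA, 29.5% of control and a log2 ratio of -0.77. The level was low in both libraries, so few fragments lie behind this check of the siRNA. Its row covers chr13:27829759-27926314 of hg38, an interval that includes the antisense gene PDX1-AS1, whose own row was listed at 0 in both libraries. In the authors' deposited table PDX1 had an unadjusted p of 0.02035 and a q of 0.999. In the other lines PDX1 was at 0.914 and 0.372 FPKM in Panc.8, 9.61 and 5.37 FPKM in HPAF-II and 0.188 and 0.0998 FPKM in Panc.10.05. The log2 ratios were -0.48, -0.73 and -0.11. The added 1 FPKM makes the ratios at such low levels look smaller, so these ratios do not rank the siRNA effect.

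Most members differed little between the libraries. The median log2 ratio was 0.04, the middle 50% of members lay between -0.11 and 0.18, and the SD was 0.344. Ratios were above 0 in 6577 members (57.6%) and below 0 in 4847 (42.4%). A log2 ratio of 1 or more, a 2-fold difference, was found in 46 members (0.403%), and a ratio of -1 or less in 73 (0.639%). The SD was 0.421 in Panc.8, 0.260 in HPAF-II and 0.515 in Panc.10.05, and the share at least 2-fold different was 1.04% in Panc.05.04, 1.89% in Panc.8, 0.358% in HPAF-II and 4.80% in Panc.10.05. By size Panc.05.04 therefore stood between HPAF-II and Panc.8, with 119 members past 2-fold against 41 and 220. Small RNAs made up much of the count. Of 73 members with a small RNA type, 19 were 2-fold higher or more, 22 were correspondingly lower, and 34 of these 41 were listed at 0 in one of the libraries. Of 10499 protein-coding members with a symbol of their own, 21 were higher by 2-fold or more (0.200%) and 48 lower by as much (0.457%).

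**Figure D1:**
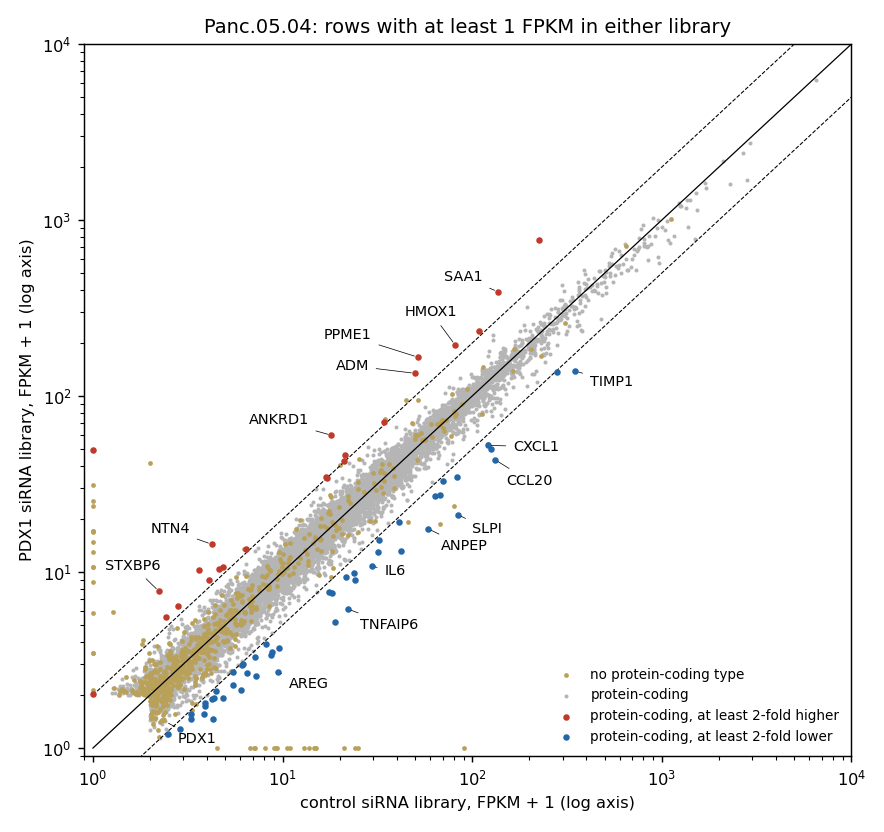
Each point is 1 of the 11425 members, with FPKM + 1 in the control siRNA library on the horizontal axis and FPKM + 1 in the PDX1 siRNA library on the vertical axis, both logarithmic. The solid line marks equal values and the dashed lines a 2-fold difference, and most points lie between the dashed lines. ANKRD1 and SAA1 stand above the upper line, SLPI, CCL20, IL6 and TIMP1 below the lower line, and the points on the axes are mostly small RNAs listed at 0 in 1 library.

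The 2-fold differences were not limited to weakly expressed genes. The added 1 FPKM makes a 2-fold ratio harder to reach at low levels, so the shares of the level classes are not directly comparable. Among protein-coding members between 1 and 2 FPKM in the higher library, 1 of 790 was at least 2-fold higher and 2 were lower (0.380% in either direction). Between 20 and 100 FPKM the counts were 5 higher and 15 lower of 3203 (0.624%). At 100 FPKM and above they were 6 higher and 5 lower of 702 (1.57%), the highest share of the 5 level classes. Panc.8 and Panc.10.05 also had their highest share in the class of 100 FPKM and above, 4.02% and 7.53%, while HPAF-II had 0 of 687 genes there.

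**Figure D2:**
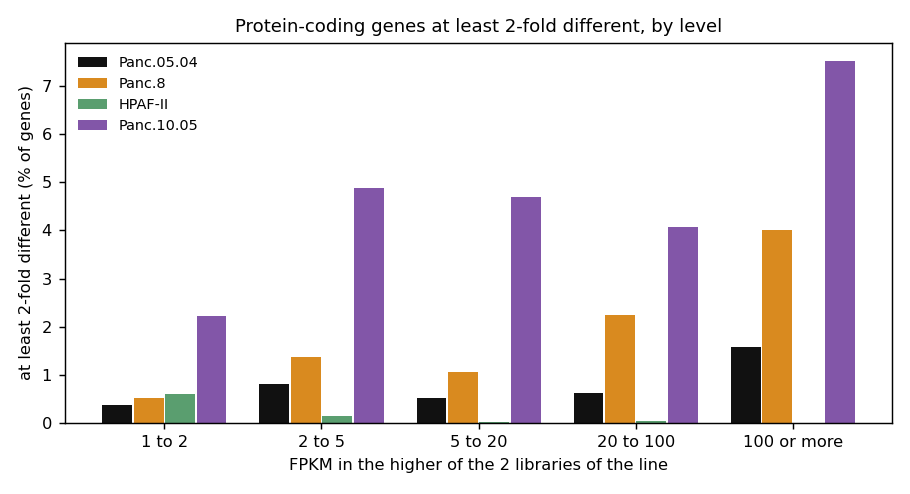
Bars give the share of protein-coding genes with a symbol of their own that were at least 2-fold different between PDX1 siRNA and control siRNA, in percent, by the FPKM of the higher library of the line (horizontal axis) and for each of the 4 lines. The Panc.05.04 bars run from 0.380% at 1 to 2 FPKM to 1.57% at 100 FPKM or more, below the Panc.10.05 bar in each class. The 1 FPKM added to each value makes 2-fold harder to reach in the low classes.

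Many of the lowest ratios belonged to genes of inflammation and mucosal defence. The promoters of 4 of them are shown because NF-kB binding sites near the start are known for several cytokine genes. They are the 250 bases before the RefSeq start on the gene's strand (GRCh38.p14) of the 4 lowest members, among those with an entry in the RefSeq promoter table, of the chemokine list, the interleukin list and the list of inflammatory NF-kB targets. The windows are chr2:151357342-151357591 (plus strand) for TNFAIP6, chr2:227813592-227813841 (plus) for CCL20, chr7:22726950-22727199 (plus) for IL6 and chr5:132073539-132073788 (plus) for CSF2. Capitals mark matches to the 10-letter NF-kB consensus on either strand.
TNFAIP6: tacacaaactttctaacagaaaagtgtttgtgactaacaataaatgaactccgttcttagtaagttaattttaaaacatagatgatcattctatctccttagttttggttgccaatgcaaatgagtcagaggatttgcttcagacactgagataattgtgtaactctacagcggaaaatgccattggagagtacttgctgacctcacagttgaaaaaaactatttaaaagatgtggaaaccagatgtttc
CCL20: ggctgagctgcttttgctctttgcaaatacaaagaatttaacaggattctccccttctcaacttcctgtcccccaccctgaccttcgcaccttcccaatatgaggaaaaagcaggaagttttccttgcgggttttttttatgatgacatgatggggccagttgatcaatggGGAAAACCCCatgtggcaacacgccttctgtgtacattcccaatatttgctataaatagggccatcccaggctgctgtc
IL6: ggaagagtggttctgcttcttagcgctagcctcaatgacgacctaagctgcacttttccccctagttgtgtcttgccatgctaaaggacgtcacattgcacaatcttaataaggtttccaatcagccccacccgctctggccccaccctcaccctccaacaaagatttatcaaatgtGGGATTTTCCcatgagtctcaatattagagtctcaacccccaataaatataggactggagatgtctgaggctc
CSF2: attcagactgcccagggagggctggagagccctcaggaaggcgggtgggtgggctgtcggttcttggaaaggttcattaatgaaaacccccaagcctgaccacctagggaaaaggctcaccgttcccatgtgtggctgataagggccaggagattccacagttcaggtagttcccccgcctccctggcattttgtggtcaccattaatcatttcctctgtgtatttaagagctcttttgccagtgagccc
CCL20 and IL6 held 1 match each, which began 79 and 73 bases before the start. In TNFAIP6 and CSF2 the consensus letters were not in this window. Of the 34 members of the 3 lists, 28 had a promoter in the table and 11 of those (39.3%) held the consensus, as did 2614 of all 27305 promoters (9.57%). Among the 25 lowest protein-coding genes of Panc.05.04 the figures were 7 of 18 (38.9%), and among the 25 highest 4 of 18 (22.2%). The AP-1 letters TGANTCA, which read the same on both strands, were found in 6 of the 28 promoters (21.4%) and in 6.60% of all, and the homeodomain core TAATTA in 1 of the 28 (3.57%) and in 4.49% of all. These are letter matches and not measured binding. Genes of 1 of the 3 lists were chosen as NF-kB targets, so a share above that of all promoters was likely from the choice. The 25 lowest and 25 highest were picked by their ratios. The shares therefore describe the lists, and no cause was tested.

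Chemokines, the secreted attractants of leukocytes, had a median log2 ratio of -0.86 over the 8 members of a list of 15, with 7 below 0 and 4 at least 2-fold lower, beside 42.4% and 0.639% of all members. The median was -0.39 with the listed genes under 1 FPKM included and -0.45 with a pseudocount of 5 FPKM. CCL20, which attracts CCR6-bearing lymphocytes and dendritic cells, was at 131 FPKM in the control library against 42.5 FPKM after PDX1 siRNA, a log2 ratio of -1.60. The neutrophil attractants CXCL8 (30.9 and 12 FPKM) and CXCL1 (120 and 51.5 FPKM) had ratios of -1.29 and -1.20, and the interferon-induced CXCL10 (5.15 and 2.0 FPKM) -1.04. Their relatives CXCL3 (3.39 and 1.75 FPKM) and CXCL2 (53.1 and 40.2 FPKM) were also lower in the PDX1 siRNA library, by less than 2-fold. CXCL1, CXCL2 and CXCL3 are close copies of each other, and how their shared reads were counted is not known. CCL28 was level at 4.81 and 4.66 FPKM, and CXCL16, a membrane-bound chemokine, was higher at 5.28 and 7.73 FPKM. In a bulk library fewer cells that make a transcript and less of it in each cell cannot be told apart. CD14, the leukocyte marker that was detected at more than a trace, was also lower, and the other leukocyte markers were at or near 0 in both libraries.

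Cytokines shared this direction, with large differences for a few members and small ones for the rest. Over 11 members of the list of 15 interleukins and colony-stimulating factors the median was -0.30, 8 were below 0 and 4 at least 2-fold lower (42.4% and 0.639% of all members). With the listed genes under 1 FPKM included the median was -0.16. IL6, the inducer of the acute-phase response, was at 28.5 and 9.79 FPKM (-1.45). The granulocyte-macrophage factor CSF2 was at 7.66 and 2.36 FPKM (-1.37) and the granulocyte factor CSF3 at 40.2 and 18.4 FPKM (-1.09). IL1B (2.28 and 0.454 FPKM) had -1.17, and its relative IL1A, at 80.2 and 64.8 FPKM, -0.30. The macrophage factor CSF1 was at 14.4 and 8.96 FPKM. LIF (12.1 and 11.6 FPKM), IL32 (195 and 194 FPKM), IL18 (16.5 and 17.8 FPKM) and EBI3 (24.97 and 26.97 FPKM) were nearly level. IFNL1, a type III interferon, was at 17.2 and 6.60 FPKM, and its near-identical copies IFNL2 and IFNL3 at 4.80 and 1.95 FPKM and at 4.02 and 3.02 FPKM, so the split of reads among them is uncertain.

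Genes that NF-kB is known to induce were mostly lower, and the subunits of NF-kB were nearly level. Of 20 inflammatory targets 15 were members, with a median of -0.52, 12 below 0 and 3 at least 2-fold lower (42.4% and 0.639% of all members), and with a pseudocount of 5 FPKM the median was -0.34. TNFAIP6, a secreted hyaluronan-binding protein, was at 21.03 and 5.17 FPKM (-1.84). The iron-chelator carrier LCN2 (81.9 and 33.4 FPKM) and the prostaglandin synthase PTGS2 (16.6 and 6.71 FPKM) had -1.27 and -1.19. The mitochondrial superoxide dismutase SOD2, the most abundant member, was at 962 and 569 FPKM (-0.76), and TNFAIP2 at 105 and 61.9 FPKM (-0.76). The adhesion receptor ICAM1 did not share this direction, at 191 and 210.2 FPKM, nor did CD83, at 20.4 and 24.3 FPKM. Among 13 members of the list of NF-kB subunits and inhibitors the median was -0.07 and none passed 2-fold. The subunits RELA (106 and 91.9 FPKM), RELB (32.3 and 27.5 FPKM), NFKB1 (32.1 and 33.8 FPKM) and NFKB2 (87.5 and 89.4 FPKM) differed little. The feedback inhibitors NFKBIA (279 and 195 FPKM) and TNFAIP3 (17 and 10.5 FPKM) and the coregulator BCL3 (78.6 and 45.8 FPKM) were lower in the PDX1 siRNA library, and the caspase-binding BIRC3 was higher at 27 and 34.6 FPKM.

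Secreted defence proteins of mucosal surfaces held the lowest ratio of the named protein-coding genes, beside 1 of the highest. Over 7 members of a list of 17 the median was -1.33, 5 were at least 2-fold lower and 1 at least 2-fold higher, beside 0.639% and 0.403% of all members. The median was -0.11 when the listed genes under 1 FPKM were included. The lowest ratio was that of SLPI, an inhibitor of neutrophil elastase, at -1.99, with 83.1 and 20.1 FPKM. PI3 (elafin), which inhibits the same protease, was at 41.3 and 12.2 FPKM (-1.67). The calprotectin subunits S100A9 (17.9 and 4.21 FPKM) and S100A8 (3.83 and 0.923 FPKM) had -1.85 and -1.33. SAA1, acute-phase serum amyloid A, had the opposite sign with 136 and 390.1 FPKM (1.52). The row that SAA2 shares with SAA4 and their readthrough gene was also higher, at 20.3 and 44.97 FPKM (1.11), and SAA1 and SAA2 are near-identical. Complement components and regulators had a median of -0.49 over 6 members (-0.17 with the listed genes under 1 FPKM included). Of these, 5 were below 0 and 2 at least 2-fold lower, beside 42.4% and 0.639% of all members. The proteases C1S (7.80 and 2.5 FPKM) and C1R (3.26 and 0.897 FPKM), which start the classical pathway together, had -1.33 and -1.17, and C3 was at 8.34 and 5.12 FPKM. The surface inhibitors CD46 (94.1 and 99.7 FPKM) and CD59 (253 and 225 FPKM) were nearly level.

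Interferon-stimulated genes showed a smaller difference that nearly every member shared. Of 40 members of a list of 49, 37 were below 0, the median was -0.23 and none passed 2-fold. The antiviral genes OASL (20.5 and 10.8 FPKM) and IFIT3 (28.7 and 15.3 FPKM) had -0.87 and -0.86. IFITM3, which blocks entry of enveloped viruses, was the most abundant of those named, at 2818 and 1690 FPKM (-0.74). LAMP3 (13 and 19.99 FPKM), EIF2AK2 (17.6 and 20.4 FPKM) and USP18 (5.80 and 6.58 FPKM) were the 3 members above 0. For comparison, 42.4% of all members were below 0.

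Growth factor and early-response genes were led by AREG and DUSP6. AREG, a ligand of the EGF receptor, was at 8.41 and 1.71 FPKM (-1.80), and the ligands EPGN (3.43 and 2.28 FPKM) and TGFA (10.8 and 8.09 FPKM) were lower by less than 2-fold. HBEGF, a ligand of the same receptor, was higher at 20.1 and 30.2 FPKM, as was EGFR itself at 36.3 and 48.9 FPKM. DUSP6, the phosphatase that switches off ERK as a feedback, was at 62.4 and 26 FPKM (-1.23). The rest of the MAPK feedback list did not share this difference. Over 15 members the median was 0.01 with 8 above and 7 below 0, beside 57.6% and 42.4% of all members. SPRY4 was at 27.7 and 19.1 FPKM, SPRY2 at 18.2 and 18.3 FPKM, ETV5 at 31.7 and 37.2 FPKM, DUSP5 at 50.1 and 70.01 FPKM and DUSP1 at 13.2 and 23 FPKM. AP-1 and immediate early factors had a median of -0.28 over 16 members, 10 of them below 0, beside 42.4% of all members. JUND (137 and 91.1 FPKM) and JUNB (136 and 108 FPKM) were lower in the PDX1 siRNA library, and JUN (53.6 and 65.6 FPKM) and FOSL2 (14.3 and 19.3 FPKM) higher.

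Targets and components of the YAP/TAZ pathway were mostly higher. Over 30 members of a list of 32 the median was 0.22, 23 were above 0 and 3 at least 2-fold higher, against 57.6% and 0.403% of all members. The median was 0.14 with a pseudocount of 5 FPKM. ANKRD1, an ankyrin-repeat cofactor, was at 17.1 FPKM with control and 58.8 FPKM with PDX1 siRNA (1.72), and the matricellular CTGF (CCN2) at 107 and 234 FPKM (1.12). Its close relative CYR61 was at 389 and 519 FPKM (0.42). The DNA-binding partner TEAD1 was at 38.7 and 65.3 FPKM and the Hippo scaffold WWC1 at 29.1 and 45.4 FPKM. The coactivators themselves were nearly level, with YAP1 at 90.3 and 94.2 FPKM and WWTR1, which encodes TAZ, at 22.9 and 20.8 FPKM. AXL (115 and 122 FPKM) and AMOTL2 (70.6 and 73.8 FPKM), 2 well-known targets, also differed little, and IGFBP3 (44.5 and 24.6 FPKM) and the tissue factor gene F3 (7.39 and 5.09 FPKM) were lower. The list of TGF-beta ligands, receptors and targets had a median of -0.15 over 25 members, and -0.05 over those with at least 5 FPKM in either library. On that list TGFB2 (0.267 and 1.06 FPKM), a member through its PDX1 siRNA library alone, was higher, the activin subunit INHBA (1.5 and 0.206 FPKM) at least 2-fold lower, and SMAD7 (2.70 and 2.06 FPKM) and ID1 (61.1 and 48.9 FPKM) lower by less.

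The promoters of the 3 highest YAP/TAZ members with a RefSeq entry are shown because TEAD factors bind near the start of known targets. The windows are chr10:90921088-90921337 (minus strand) for ANKRD1, chr6:131951373-131951622 (minus) for CTGF and chr1:218345086-218345335 (plus) for TGFB2, each the 250 bases before the start in GRCh38.p14, written on the gene's strand. Capitals mark the TEAD core GGAATG on either strand.
ANKRD1: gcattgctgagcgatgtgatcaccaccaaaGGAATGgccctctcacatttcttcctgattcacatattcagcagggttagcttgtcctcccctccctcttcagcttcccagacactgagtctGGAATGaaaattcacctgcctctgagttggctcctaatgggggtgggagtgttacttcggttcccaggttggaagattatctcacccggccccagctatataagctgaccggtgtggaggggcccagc
CTGF: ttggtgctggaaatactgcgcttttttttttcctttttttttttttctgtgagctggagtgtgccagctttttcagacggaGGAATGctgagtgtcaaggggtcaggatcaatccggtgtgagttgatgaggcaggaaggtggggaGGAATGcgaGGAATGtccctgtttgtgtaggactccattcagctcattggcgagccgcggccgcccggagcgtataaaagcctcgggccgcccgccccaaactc
TGFB2: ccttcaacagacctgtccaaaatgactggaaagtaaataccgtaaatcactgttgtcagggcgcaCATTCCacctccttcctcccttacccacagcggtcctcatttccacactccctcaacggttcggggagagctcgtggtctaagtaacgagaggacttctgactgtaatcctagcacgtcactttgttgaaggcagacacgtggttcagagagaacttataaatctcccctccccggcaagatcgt
ANKRD1 held 2 matches, 220 and 128 bases before the start, CTGF 3 matches, at 169, 104 and 95 bases, and TGFB2 1 match, at 185 bases, which lies on the other strand. Of the 30 members 22 had a promoter in the table, and 7 of them (31.8%) held the core, as did 3248 of all promoters (11.9%). In the inflammatory lists the core was found in 3 of 28 promoters (10.7%), and the NF-kB consensus in 5 of the 22 YAP/TAZ promoters (22.7%). Since the YAP/TAZ list holds known targets, a share of the core above that of all promoters was likely from the choice of genes. TGFB2 is a member through its PDX1 siRNA library alone. The matches are of letters, binding was not measured and no cause was tested.

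**Figure D3:**
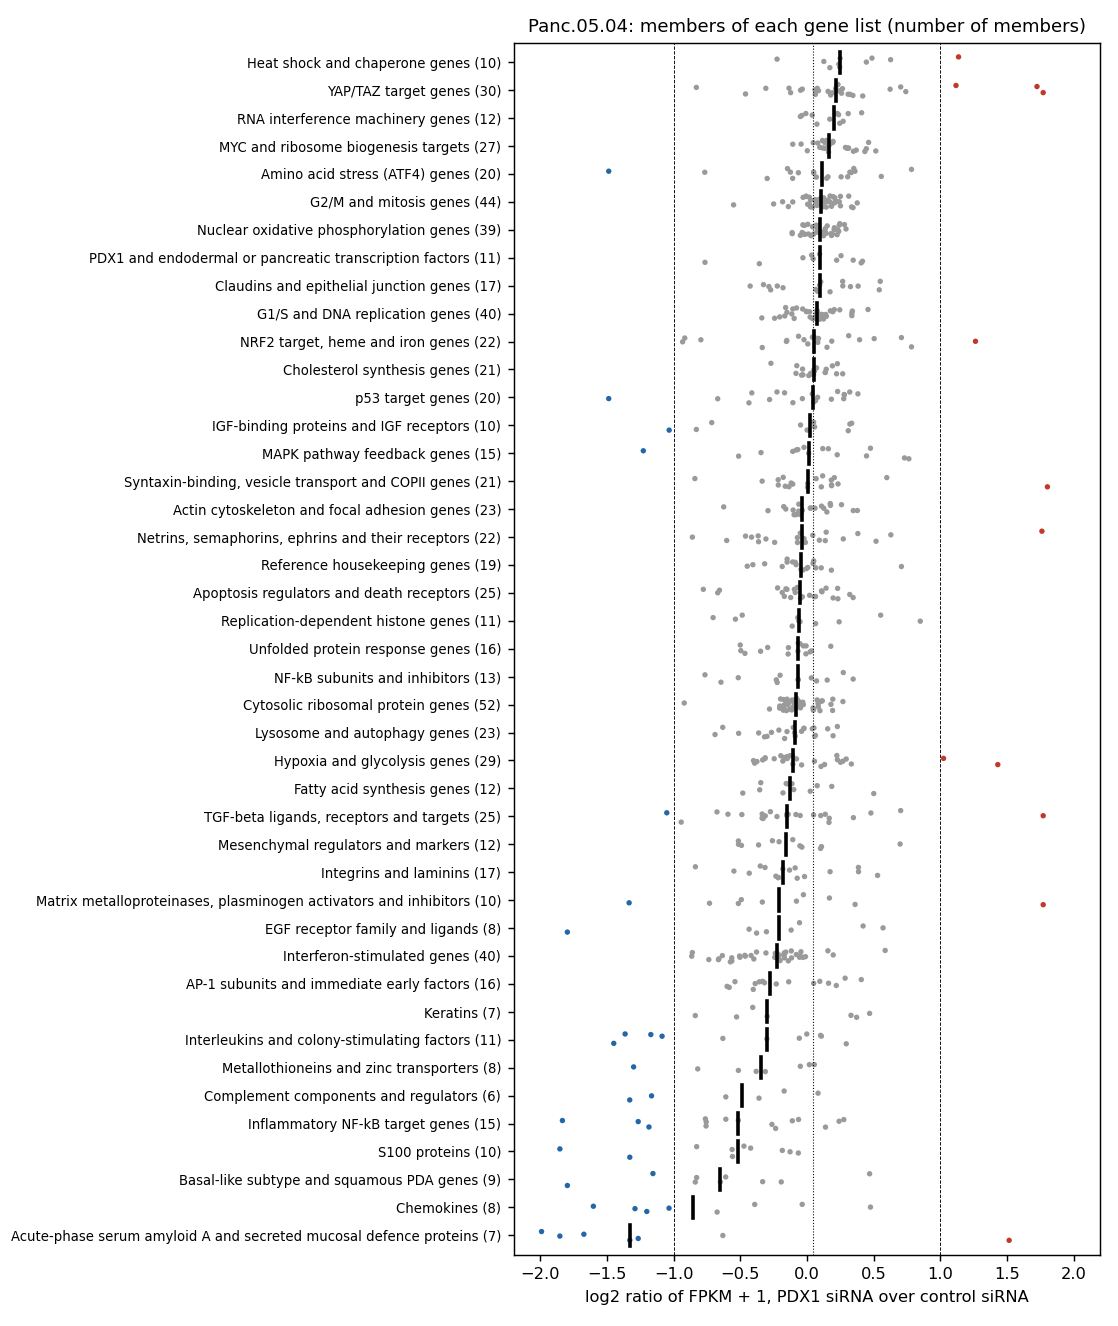
Points are the members of each gene list with at least 5 members, without the cell type marker lists, placed by their log2 ratio of FPKM + 1 in Panc.05.04 (PDX1 siRNA over control siRNA), with the number of members in brackets. Thick bars are list medians, the dotted line is the median of all members (0.04) and the dashed lines are 2-fold differences. The mucosal defence and chemokine lists have the lowest medians of the lists plotted, -1.33 and -0.86, and the heat shock and YAP/TAZ lists the highest, 0.25 and 0.22.

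Among the other genes on the higher side, several had a large ratio that their relatives did not share. STXBP6 (amisyn), which binds the membrane-fusion SNARE complex, was at 1.23 and 6.77 FPKM (1.80), the highest ratio of the named protein-coding genes. Over 21 members of the list of syntaxin-binding and vesicle genes the median was 0.00, with STXBP2 at 31.5 and 27.7 FPKM and STXBP3 at 15 and 12.8 FPKM. NTN4, a laminin-like netrin of basement membranes, was at 3.24 and 13.4 FPKM (1.76), in a list of 22 netrin, semaphorin and ephrin members with a median of -0.04. PPME1, the methylesterase of the phosphatase PP2A, was at 50.7 and 165 FPKM (1.69). ADM, the vasodilator peptide adrenomedullin, was at 48.9 and 134 FPKM (1.43) and ANKRD37 at 19.98 and 41.6 FPKM (1.02), and both are known hypoxia targets. The other hypoxia and glycolysis genes did not follow. On their list 18 of 29 members were below 0, beside 42.4% of all members, and the median was -0.11. VEGFA was at 30.6 and 27.4 FPKM, LDHA at 1265 and 1197 FPKM and SLC2A1 at 159 and 126 FPKM. The row of ANKRD37 overlaps that of UFSP2, which was at 17.2 and 21.1 FPKM.

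Genes of heme, iron and oxidative stress differed in both directions. HMOX1, the heme oxygenase, was at 80.3 and 194 FPKM (1.26). The cystine carrier subunit SLC7A11 (13.6 and 24.03 FPKM) and the transferrin receptor TFRC (127 and 208 FPKM) were higher by less than 2-fold, and GCLM, of glutathione synthesis, was at 17.98 and 25.9 FPKM. The ferritin heavy chain FTH1, at 1497 and 783 FPKM (-0.93), and the export pump ABCC3, at 35.1 and 18.1 FPKM (-0.92), were lower. NQO1 (181 and 173 FPKM), GCLC (12.1 and 12.6 FPKM) and TXNRD1 (116 and 128 FPKM), which are common NRF2 readouts, were nearly level. The list had a median of 0.05 over 22 members.

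Several abundant proteases, protease inhibitors and binding proteins of growth factors were lower. TIMP1, an inhibitor of matrix metalloproteinases, was at 349 and 138 FPKM (-1.33), and its row overlaps that of ARAF, which was level at 19.96 and 19.8 FPKM. The plasminogen activator PLAU (846 and 592 FPKM) and its receptor PLAUR (86.99 and 61.5 FPKM) were lower by less than 2-fold. IGFBP4 was at 279.7 and 136 FPKM (-1.03) and IGFBP6 at 126 and 76.4 FPKM. Their list of IGF-binding proteins and IGF receptors did not share this direction. There 6 of 10 members were above 0, near the 57.6% of all members, and the median was 0.02. The lysosomal cathepsins CTSB (379 and 235 FPKM), CTSL (240.3 and 155 FPKM) and CTSD (356 and 249 FPKM) were lower. Of the 23 members of their list 16 were below 0, beside 42.4% of all members, and the median was -0.09. The peptidase ANPEP (57.4 and 16.6 FPKM, -1.73), the zinc and manganese carrier SLC39A8 (124 and 48.9 FPKM, -1.33) and the stress cytokine GDF15 (6.20 and 1.57 FPKM, -1.49) were among the 25 lowest. The zinc-binding metallothioneins MT1F (66.6 and 26.4 FPKM) and MT1X (148 and 83.5 FPKM) were lower, and MT2A, the most abundant, was level at 6499 and 6274 FPKM. These are close copies of each other, so their shares of reads are uncertain.

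Genes of growth differed by little in the other direction. MYC and ribosome biogenesis targets were above 0 in 25 of 27 members with a median of 0.16, and G2/M genes in 36 of 44 with 0.11. Nuclear oxidative phosphorylation genes were above 0 in 31 of 39 members with 0.09 and G1/S genes in 27 of 40 with 0.07. With ratios centred on the median of the line these medians were, in the same order, 0.11, 0.06, 0.05 and 0.03. None of these members passed 2-fold, and 57.6% of all members were above 0. POLR1A, the large subunit of RNA polymerase I, was at 9.81 and 14.4 FPKM, and MKI67, a proliferation marker, at 24.7 and 32.3 FPKM. Heat shock and chaperone genes were above 0 in 9 of 10 members with a median of 0.25. HSPB8, a small heat shock protein, was at 3.84 and 9.64 FPKM (1.14) and DNAJB1 at 25.9 and 40.5 FPKM. Genes of the RNA interference machinery had a median of 0.20 (0.11 with a pseudocount of 5 FPKM), with the Argonaute AGO2 at 17.4 and 23.5 FPKM. Cytosolic ribosomal protein genes were below 0 in 38 of 52 members with a median of -0.08. Of 16 unfolded protein response genes 13 were below 0 with -0.07, beside 42.4% of all members. XBP1, a factor of that response, was at 88.5 and 63.8 FPKM, and its chaperone target HSPA5 at 428 and 425 FPKM.

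Lists of cell identity genes differed in how many of their genes were members. Of 28 endodermal and pancreatic transcription factors 11 were members, beside 11425 of all 28520 rows, and their median was 0.09. Beside PDX1 they included GATA4 (7.65 and 7.92 FPKM), GATA6 (2.07 and 2.66 FPKM), SOX9 (4.54 and 4.42 FPKM), MNX1 (5.88 and 7.74 FPKM), CDX2 (2.75 and 4.01 FPKM) and FOXA1 (1.58 and 2.42 FPKM). None of these factors other than PDX1 differed by more than 0.42 on the log2 scale. Only 2 of 29 classical-subtype PDA genes were members, against 9 of 29 basal-like and squamous genes, whose median was -0.65, or -0.38 with a pseudocount of 5 FPKM and -0.11 with the listed genes under 1 FPKM included. In that basal-like list AREG and the FGF-binding FGFBP1 (1.87 and 0.288 FPKM) were at least 2-fold lower, and KRT17 (9.25 and 4.73 FPKM) and S100A2 (14.02 and 7.45 FPKM) lower by less. All 10 members of the S100 list, calcium-binding proteins that include S100A8 and S100A9, were below 0, beside 42.4% of all members. S100A6 was at 1534 and 1143 FPKM. The mesenchymal list was below 0 in 9 of 12 members, beside 42.4% of all members, with a median of -0.16. That median was -0.09 with a pseudocount of 5 FPKM and -0.06 with the listed genes under 1 FPKM included. Besides VIM, the repressor ZEB1 was at 8.34 and 7.07 FPKM and the matrix crosslinker LOXL2 at 100.1 and 107.4 FPKM.

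Long noncoding RNAs passed 2-fold at a share near that of all members. Of 290 such members 3 passed 2-fold on the higher side and 1 on the lower (1.38%), beside 1.04% of all members. NEAT1, the scaffold of paraspeckles, was at 29.6 and 18.5 FPKM, LUCAT1 at 23.9 and 15.96 FPKM and the nuclear MALAT1 at 229 and 168 FPKM. SNHG9, a host gene of a small nucleolar RNA, was the highest of those above 5 FPKM, at 5.23 and 12.6 FPKM (1.12). OIP5-AS1 was at 17.1 and 25.6 FPKM and ZFAS1 at 114 and 146 FPKM. Chosen after their values were seen, LOC113230, without a RefSeq type, was at 1.0 and 40.5 FPKM (4.37), and LINC01158 at 0.276 and 4.95 FPKM (2.22), listed at 0 in the 6 libraries of the other lines. The 4 largest small RNA differences were all against a library listed at 0. In the control library MIR3936 was at 89.2 FPKM and SNORA26 at 23.99 FPKM, both listed at 0 with PDX1 siRNA, and SNORA32 and SNORA52, listed at 0 in the control, were at 30.3 and 24.3 FPKM. The row of SNORA26 overlaps that of DANCR, at 31.5 and 35.8 FPKM, and the row of MIR3936 that of SLC22A4, at 1.49 and 0.893 FPKM. The part of such host transcripts in these values was not tested. A listed 0 may not be a measured absence, since a row of the ribosomal protein gene RPS18, also picked after its values were seen, was listed at 0 in the Panc.05.04 control library and at 48.2 FPKM with PDX1 siRNA.

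Set beside the other lines, the genes furthest from 0 in Panc.05.04 did not keep their sign everywhere. Of its 25 lowest protein-coding genes, 21 were above 0 in Panc.8, 14 in HPAF-II and 17 in Panc.10.05, with medians of 0.57, 0.05 and 0.37. Of all protein-coding members 48.0%, 54.0% and 46.1% were above 0 in those lines. The 25 lowest, like the 25 highest below, had to reach 5 FPKM in Panc.05.04 only. Some signs in the other lines therefore rest on values near 0, such as IL6 at 0 and 0.0451 FPKM in HPAF-II. In Panc.8 8 of the 25 were 2-fold higher or more, in HPAF-II none and in Panc.10.05 8, beside 1.58%, 0.0286% and 3.01% of the protein-coding genes of those lines. SLPI was at 274 and 407 FPKM in Panc.8, 8.96 and 12.9 FPKM in HPAF-II and 37.7 and 122 FPKM in Panc.10.05, higher with PDX1 siRNA in each. CCL20 was at 11.3 and 36.5 FPKM in Panc.8, 21.8 and 23.4 FPKM in HPAF-II and 1.24 and 0.765 FPKM in Panc.10.05. IL6 stayed at or under 2.16 FPKM in the 6 libraries of the other lines, against 28.5 FPKM in the Panc.05.04 control. For the same members the chemokine median was 1.21 in Panc.8, 0.16 in HPAF-II and 0.77 in Panc.10.05, and the interferon median 2.36, 0.27 and 0.44. Over the 6173 genes at 5 FPKM or more in the 8 libraries, the ratios of Panc.05.04 had a Pearson correlation of -0.06 with those of Panc.8, 0.10 with HPAF-II and -0.24 with Panc.10.05. Genes of 1 library pair share its depth and handling, so these are descriptions of libraries, and neither the opposite signs nor the medians were tested.

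The genes on the higher side were above 0 about as often as the lowest in Panc.8 and HPAF-II, and less often in Panc.10.05. Of the 25 highest, 21 were above 0 in Panc.8, 15 in HPAF-II and 10 in Panc.10.05, with medians of 0.24, 0.11 and -0.10. The shares above 0 of all protein-coding members were 48.0%, 54.0% and 46.1% in those lines. NTN4 was level in the other lines, at 22.98 and 22.9 FPKM, 41.1 and 40.8 FPKM and 19.7 and 19.3 FPKM, and its control level in Panc.05.04 was the lowest of the 4. PPME1 was at 34.3 and 34.5 FPKM in Panc.8, 31.9 and 31.8 FPKM in HPAF-II and 18.04 and 13.3 FPKM in Panc.10.05. SAA1 was higher with PDX1 siRNA in each of the other lines too, with ratios of 1.54, 0.62 and 2.57. The YAP/TAZ median was 0.06 in Panc.8, 0.01 in HPAF-II and -0.52 in Panc.10.05, where CTGF was at 5.60 and 1.45 FPKM.

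**Figure D4:**
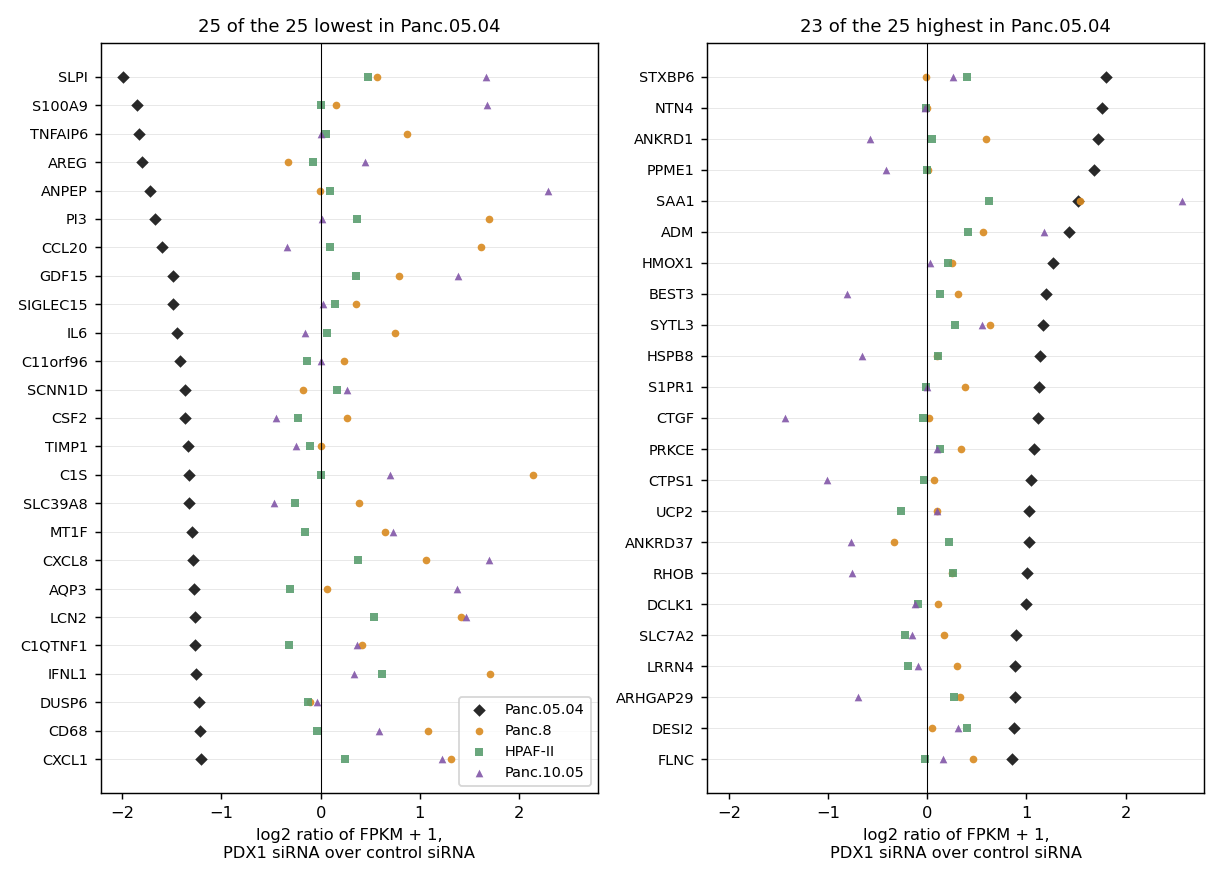
Log2 ratios of FPKM + 1 (PDX1 siRNA over control siRNA) of the 25 lowest and 23 of the 25 highest protein-coding genes of Panc.05.04, with 1 point for each of the 4 lines. Black diamonds are Panc.05.04 and fix the order of the genes. Most orange circles (Panc.8) lie right of 0, for 21 of the 25 lowest genes and 21 of all 25 highest. NTN4 and PPME1 among the highest lie near 0 or below in the other lines.

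A test of the difference between lines was possible with each of the 4 ratios of a gene as 1 value, on the assumption that the lone Panc.05.04 value varies like the others. Of 12110 genes limma placed 2 above the other 3 lines at an adjusted p of 0.05 (0.0165%) and 9 below (0.0743%). All 11 were small RNAs above 0 in 1 Panc.05.04 library and listed at 0 in the other 7 libraries. They reached the limit of a mean of 1 FPKM through that library alone, so the choice of rows fixed these calls and they are not results. Among the 12082 genes above 0 in at least 2 libraries, a choice made after seeing the data, limma called 0 above and 0 below, with 194 and 243 at an unadjusted p under 0.05. In the fit over all 12110 genes no protein-coding gene of 11417 passed, and the smallest adjusted p in limma was 0.213, for NTN4, with a difference of 1.78 (SE 0.16); among the genes above 0 in at least 2 libraries the smallest adjusted p was 0.923. An unadjusted limma p under 0.05 was reached by 451 genes, 200 above and 251 below, where chance gives 605.5. In simulated data the same test recovered 0% of differences of 1 and 0% of differences of 2 on the log2 scale, so a missing call says nothing of whether a gene differed. The protein-coding genes with the smallest p above the other lines were NTN4, PPME1, STXBP6, HMOX1, FAT1, RPS26, DCLK1 and RBM24, with differences between 0.80 and 1.82. Those below were SIGLEC15 (-1.66), DUSP6 (-1.14) and C11orf96 (-1.45). FAT1, an atypical cadherin, was at 33.8 and 53.3 FPKM in Panc.05.04, and its ratios in the other lines lay between -0.30 and -0.15. RPS26 has near-identical copies elsewhere in the genome, so its value of 6.54 and 10.9 FPKM is uncertain.

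The authors' deposited table called 13 rows higher (0.107% of 12106 rows it tested) and 19 lower (0.157%) at a q of 0.05 in Panc.05.04. The call compares 2 libraries and not the treatments. Of the 32 calls in the authors' deposited table, 31 also differed by 2-fold on the scale used here, the exception being the kinase gene DCLK1, at 13.9 and 28.7 FPKM (0.99). Its higher calls included STXBP6, NTN4, ANKRD1, PPME1, SAA1, ADM, HMOX1, CTGF, PRKCE, CTPS1 and DCLK1. PRKCE, a protein kinase C, was at 5.39 and 12.4 FPKM, and CTPS1, the CTP synthase, at 33.2 and 69.8 FPKM. Beyond the genes already given, its lower calls included CRTAP, a subunit of the collagen prolyl hydroxylase complex, at 69.1 and 31.7 FPKM, SYT12 at 31.1 and 14.3 FPKM, and C1QTNF1 at 22.7 and 8.86 FPKM. They also included a row of the ribosomal RNA precursor RNA45S5, at 120 and 52.3 FPKM, whose symbol other rows share. Large ratios outside the calls included S100A9, with q = 0.151, and GDF15, with q = 0.605 in the authors' deposited table.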

How the data were processed

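RNA-seq libraries of 4 PDA lines were used, 1 with control siRNA and 1 with PDX1 siRNA for each line. RNA was isolated with a Qiagen kit and sequenced by a standard Illumina protocol, per the labels' protocols. TopHat2 (version 2), Cufflinks and Cuffdiff were used with the build hg38, per the submitters' processing notes; their roles, the gene annotation and strand use are not stated there. Per the file headers, the authors deposited 1 table of 28520 rows per line, with an FPKM value for each library and a p-value and q-value, which compare 2 libraries. Depth is unknown and FPKM values hold no counts, so no count test was run and no counting interval is given.

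Rows were joined by their identifier. A symbol of its own was held by 24156 rows, 3808 shared one, 528 held several and 28 a date. RefSeq gene types were matched for 27252 rows (95.6%) and 11306 members (99.0%). Starts in the tables were read as counted from 0, and 1 was added. Relative depth was the commonest ratio between the libraries among rows under 0.15 FPKM in both. Ratios used a pseudocount of 1 FPKM on members only. Differences between lines were tested with limma 3.58.1 (R 4.3.3, eBayes with trend, Benjamini-Hochberg adjustment) on 12110 genes with a mean of at least 1 FPKM over the 8 libraries, which left 2 residual degrees of freedom; the test was tried on simulated data. A gene above 0 in 1 library alone can reach that mean through it. Its p-values measure the spread between the other 3 lines, each with 1 library per treatment. Other pseudocounts, filters, a fold of 1.5, centred ratios and leaving out a line were tried. Promoters are from RefSeq (GRCh38.p14). Python 3.11.15, numpy 2.4.6, pandas 2.3.3 and matplotlib 3.10.9 did the rest.

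Named genes were PDX1; the 25 highest and 25 lowest ratios among protein-coding genes with a symbol of their own, at least 5 FPKM in either library and above 0 in both; 8 long noncoding RNAs per direction by the same limits; the 4 largest small RNA differences; members of 47 gene lists; the 12 genes per direction with the smallest limma p at 5 FPKM or more in a Panc.05.04 library; and rows the authors called. A few genes that these rules name are not reported here. Of the 1058 different genes in the lists and markers, 65 had no row of their own. The members and lists were chosen with earlier results of these data known. A gene can be a member through 1 library alone, so counts over members describe and support nothing.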

Additional observations from a re-analysis of the deposited data

How the results depend on the processing

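Counts at least 2-fold higher and lower, 46 and 73 as reported, were 94 and 152 with a pseudocount of 0.1 FPKM, 22 and 39 with 5 FPKM, 21 and 48 for protein-coding genes with a symbol of their own, and 184 and 268 at 1.5-fold; fewer or more genes reach a limit by construction in each. The PDX1 ratio was -1.55 with a pseudocount of 0.1 FPKM and -0.24 with 5 FPKM. Calls of the difference between lines, 2 above and 9 below, were 0 and 1 at a mean of at least 5 FPKM, 0 and 0 among protein-coding genes alone and among genes above 0 in at least 2 libraries (the latter chosen after seeing the data), and 8 above without a filter. Leaving out 1 of the other lines gave 0 to 6 above and 0 to 8 below: 0 and 0 without Panc.8 or HPAF-II, 6 and 8 without Panc.10.05. Centring the ratios moved them by 0.05. Over the 25 highest and 25 lowest genes, 148 values stayed within 1 SD between lines of the reported one, and STXBP6 (0.92) and SYTL3 (0.73) moved with a pseudocount of 5 FPKM. That SD is wide for the gene lists: 297 of 308 alternative medians stayed within it, yet of the 25 lists with a median at least 0.1 from 0, 17 had one that differed by over 1.5 times under some alternative, 12 of them when genes under 1 FPKM were included, which adds genes at or near 0. The mucosal defence median was then -0.11 against -1.33 and the S100 median -0.31 against -0.52. The keratin median changed sign, from -0.30 to 0.0145, with at least 5 FPKM in either library, where fewer genes are members. Medians nearer 0 also changed sign: with centred ratios, MAPK feedback (0.01 to -0.04), p53 targets (0.04 to -0.0044), syntaxin-binding and COPII genes (0.0043 to -0.04) and IGF-binding proteins (0.02 to -0.02), the last also with at least 5 FPKM (-0.00021) and without the filter (-0.0062). No paired analysis was possible because the response within Panc.05.04 rests on 1 pair of libraries; the comparison between lines already uses the ratio within each pair, and the mean response over the 4 pairs was not tested. PDX1 was at 1.41 FPKM or less in the Panc.05.04 libraries, and depth is unknown.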
